A study of Mus musculus with 4 samples.

Results

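Integrins are cell surface receptors built from 1 alpha and 1 beta subunit, and the genes described here encode 10 of them that epithelial and mesenchymal cells use to hold the extracellular matrix: Itga1, Itga2, Itga3, Itga5, Itga6, Itgav, Itga8, Itgb1, Itgb4 and Itgb5. Membership was set by gene symbol, with no threshold on a measured value. All 10 were among the 40092 genes of the count table and all 10 were among the 16661 genes that passed the filter on low counts. The table held 27 integrin subunits, of which the other 17 are mostly subunits of leukocytes, platelets or muscle.

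RNA was measured in 4 libraries of alveolar type II (AT2) cells, the surfactant-making progenitors of the alveolus, sorted as GFP+ cells from mouse lung 14 days after bleomycin, a drug that injures the alveolar epithelium. The 2 control libraries (Ctrl 1 and Ctrl 2) came from Alkbh5flox/+; Sftpc-CreERT2; Rosa26-mTmG mice and the 2 knockout libraries (A5-CKO 1 and A5-CKO 2) from Alkbh5flox/flox; Sftpc-CreERT2; Rosa26-mTmG mice, and both groups received tamoxifen and bleomycin. Controls thus carried 1 floxed Alkbh5 allele and the Cre as well, so they are heterozygous littermates and not wild type. The Sftpc promoter drives the Cre, and the reporter marks every cell that had recombined and its descendants, whatever type they had become by the day of sorting. The labels give no age, and they do not say whether 1 or several animals entered a library. Alkbh5 encodes an RNA demethylase that removes the N6-methyladenosine mark from mRNA, and the comparison asks how its loss in AT2 cells alters their transcripts during repair.

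Integrin alpha subunits largely set which ligand is bound. The products of Itga3 and Itga6 bind laminins of the basement membrane, those of Itga1 and Itga2 bind collagens, and those of Itga5, Itgav and Itga8 bind proteins with an RGD (Arg-Gly-Asp) motif such as fibronectin. Itgb1 encodes the common partner of most of these chains, Itgb4 pairs with the Itga6 product at hemidesmosomes, the anchors of epithelium to basement membrane, and Itgb5 pairs with the Itgav product. In the alveolus, integrins that hold the Itgav product are known for activating latent TGF-beta, a driver of fibrosis.

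Promoter windows are shown for the members that differed most between libraries and that have an entry in the RefSeq table (assembly GRCm38.p6). Of the 10 members, 8 had a promoter entry. The level of 6 members was over 2.5 times as high in the highest library as in the lowest, and 4 of those, Itga2, Itga5, Itgav and Itgb5, had a window, which runs from 250 bases before the start site used by that table to 50 bases after it. For Itgav that site lies inside the annotated gene, downstream of its first base. Each is written 5′ to 3′ on the gene's strand, with capitals at matches to GGGCGG, the core of the SP1 box, on either strand (read as CCGCCC on the other).
Itga2, chr13:114932051-114932350, minus strand: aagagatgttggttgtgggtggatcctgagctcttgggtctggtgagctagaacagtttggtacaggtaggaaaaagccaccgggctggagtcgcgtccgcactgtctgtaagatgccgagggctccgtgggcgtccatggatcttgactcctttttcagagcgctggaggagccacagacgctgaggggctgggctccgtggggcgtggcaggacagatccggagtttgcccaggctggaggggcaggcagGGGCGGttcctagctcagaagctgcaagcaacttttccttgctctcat
Itga5, chr15:103366742-103367041, minus strand: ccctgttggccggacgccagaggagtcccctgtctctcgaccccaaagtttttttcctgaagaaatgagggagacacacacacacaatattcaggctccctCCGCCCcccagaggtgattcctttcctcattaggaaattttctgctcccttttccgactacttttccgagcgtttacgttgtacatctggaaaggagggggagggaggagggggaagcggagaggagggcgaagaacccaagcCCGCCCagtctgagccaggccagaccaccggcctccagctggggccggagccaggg
Itgav, chr2:83724147-83724446, plus strand: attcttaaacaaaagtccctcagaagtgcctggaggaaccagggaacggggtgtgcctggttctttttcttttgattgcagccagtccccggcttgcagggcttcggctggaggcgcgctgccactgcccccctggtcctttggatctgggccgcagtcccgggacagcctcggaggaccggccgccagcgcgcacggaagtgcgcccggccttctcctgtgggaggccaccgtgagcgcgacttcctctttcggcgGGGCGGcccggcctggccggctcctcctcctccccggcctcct
Itgb5, chr16:33829415-33829714, plus strand: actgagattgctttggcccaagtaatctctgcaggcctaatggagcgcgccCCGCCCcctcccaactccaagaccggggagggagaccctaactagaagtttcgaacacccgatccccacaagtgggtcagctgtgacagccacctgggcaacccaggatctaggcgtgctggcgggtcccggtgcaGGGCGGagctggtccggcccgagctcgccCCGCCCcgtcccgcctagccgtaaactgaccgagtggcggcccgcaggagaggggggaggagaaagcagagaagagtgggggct
GGGCGG on either strand occurred once in the windows of Itga2 and Itgav, 2 times in that of Itga5 and 3 times in that of Itgb5, while 35.7% of the 32851 promoter windows of the same length held it. The AP-1 motif TGANTCA (in 7.81% of all windows), the TEAD motif GGAATG (in 14.7%) and the TATA box TATAAA (in 13.6%) had no match in these 4 windows. Members whose windows are not shown, and which differed less between libraries, also held such matches. GGGCGG had 3 matches in an Itga3 window and 1 in that of Itgb1, which also held 1 TEAD match. A second Itga3 window held 1 match each to GGGCGG and the AP-1 motif, and the windows of Itga1 and Itga8 held none of the motifs. GC content was 59.3% for Itga2, 58.7% for Itga5, 67.3% for Itgav and 65.7% for Itgb5, against a median of 52.7% over all windows. A match is a run of letters and not a measured binding site, and these motifs were chosen after the expression values had been seen.

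Assigned counts ranged from 18144865 to 20811757 per library, and 3 counts, taken as the floor of detection, corresponded to 0.128 to 0.177 CPM, the count relative to library size as scaled here with TMM factors. Alkbh5 itself was at 81.7 CPM (Ctrl 1), 152 CPM (Ctrl 2), 19.3 CPM (A5-CKO 1) and 36.6 CPM (A5-CKO 2). Only the first exon is floxed, so reads from the rest of the gene can still be counted. The groups did not overlap, and the log2 fold change was -2.06 ± 0.46 (SE, n = 2 per group; edgeR quasi-likelihood test, adjusted p = 0.528). Libraries of the same genotype differed widely: the biological coefficient of variation was 41.6%, and the pair of libraries closest in counts, Ctrl 1 and A5-CKO 2, crossed the genotypes. AT2 markers were high in every library (10 of 10 detected, summed level 56842 to 82478 CPM in Ctrl and 35068 to 42680 CPM in A5-CKO). Of the AT1 markers, Ager (2, 6, 2 and 4 counts in the library order above) and Pdpn (3, 0, 17 and 3 counts) were near the floor under these symbols, and a second Pdpn entry of the table on a patch sequence held 41, 18, 73 and 52 counts. These are bulk values, in which fewer cells of a type and less RNA per cell cannot be told apart.

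No member passed an adjusted p of 0.05 between the genotypes, and neither did any other gene (0% of the 16661 tested by edgeR). DESeq2 called 64 of the same genes and limma voom 0, and no member was called by either. At an unadjusted p of 0.05, 1 of the 10 members was called, Itga6, and it was higher in A5-CKO, where 9.18% of all genes tested were called in either direction and 4.48% as higher. Both A5-CKO libraries lay above both Ctrl libraries for 2 of 10 members, Itga1 and Itga6, against 20.3% of all genes, and below both for 0 of 10, against 23.5% of all genes. The fold change was above 0 for 8 of 10 members (49.1% of all genes) and below 0 for Itga8 and Itgb5. It was above 0 for 4 members without Ctrl 2, for 4 without A5-CKO 2 and for all 10 under upper-quartile scaling. The median log2 fold change was 0.24 over the members and -0.02 over all genes tested. The member median was -0.09 without Ctrl 2 and -0.11 without A5-CKO 2, and 0.91 without Ctrl 1 and 0.66 without A5-CKO 1. The median over all genes tested was 0.06, -0.07, 0.11 and -0.08 in the same order. Under upper-quartile scaling it was 0.08 over all genes and 0.34 over the members. After the GC and length correction the member median was 0.08, against -0.08 over all genes. What the members shared was the library in which they peaked: 9 of 10 were highest in A5-CKO 2 (20.2% of all genes) and 6 of 10 were lowest in Ctrl 2 (25.9% of all genes).

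**Figure D1:**
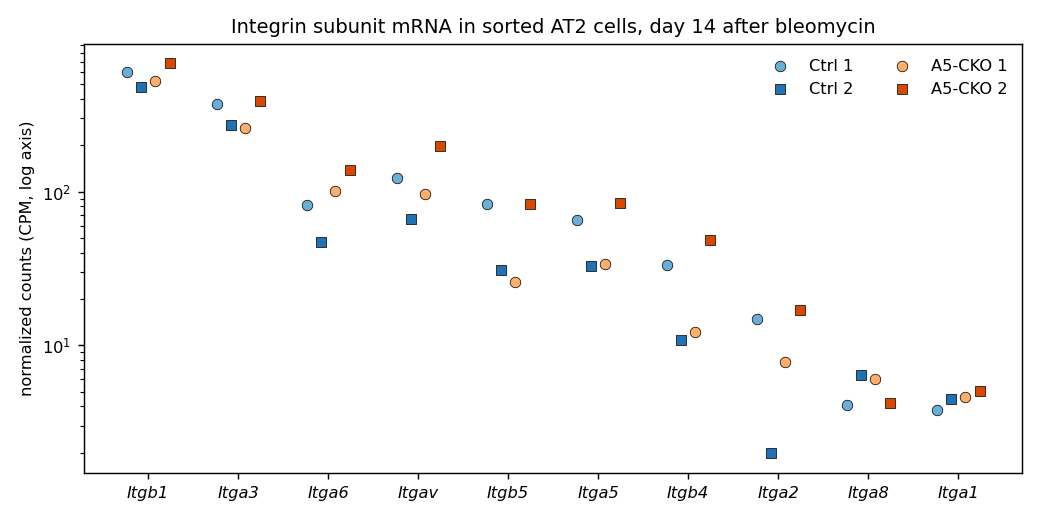
Normalized counts (CPM, log axis) of the 10 integrin subunits in each of the 4 libraries, ordered by level per kb of transcript, with Ctrl in blue and A5-CKO in orange. A5-CKO 2 is the highest point for every member except Itga8, and Itga2 in Ctrl 2 (1.98 CPM) lies far under its other 3 points.

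Among the laminin receptor chains, Itga6 was the member with the clearest difference between the genotypes and Itga3, the other laminin receptor chain among the members, had a fitted difference near 0 with a wide interval. Itga6 (GRCm38.p6, chr2:71786886-71858427) was at 82.0 CPM (Ctrl 1), 47.0 CPM (Ctrl 2), 101 CPM (A5-CKO 1) and 138 CPM (A5-CKO 2), or 1387, 808, 2231 and 3219 counts. Each A5-CKO library exceeded each Ctrl library, with means of 119 ± 25.9 and 64.5 ± 24.8 CPM (SD, n = 2 per group). The fitted log2 fold change was 0.89 ± 0.37 (SE; 95% interval 0.0087 to 1.77; edgeR quasi-likelihood test, adjusted p = 0.528). Without Ctrl 2 it was 0.50, without A5-CKO 1 it was 1.08 and without A5-CKO 2 it was 0.62, and in each of these fits the unadjusted p was above 0.05. It remained above 0 in all 17 alternative fits (0.50 to 1.41), with the adjusted p between 0.171 and 0.996. After the GC and length correction it was 0.69 (edgeR quasi-likelihood test, unadjusted p = 0.124). The unadjusted p of that test was also above 0.05 with the replicate block (0.0744) and with no filter (0.0689). The AT2 marker sum was lower in both A5-CKO libraries, with 10 of 10 fold changes below 0 (49.1% of all genes were above 0). Of these 10 markers, 6 were below both Ctrl libraries in both A5-CKO libraries (23.5% of all genes). Of the 10 AT1 markers tested, 5 were above both Ctrl libraries in both A5-CKO libraries (20.3% of all genes). The fold change was above 0 for 7 of these 10 AT1 markers (49.1% of all genes) and below 0 for 3, and 1 was below both Ctrl libraries (23.5% of all genes). The AT1 marker sum was 3308 to 3309 CPM in Ctrl, within the 2990 to 3570 CPM of A5-CKO. The part of these markers in the Itga6 difference was not tested.

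Itga3 (chr11:95044475-95076844), whose product pairs with the Itgb1 chain on epithelial cells, was at 372 CPM (Ctrl 1), 271 CPM (Ctrl 2), 260 CPM (A5-CKO 1) and 386 CPM (A5-CKO 2). The groups overlapped fully, with the highest and the lowest library both in A5-CKO. Its log2 fold change was 0.0070 ± 0.36 (95% interval -0.85 to 0.87; adjusted p = 0.995), which was -0.24 without Ctrl 2 and -0.34 without A5-CKO 2. The interval leaves room for a change of nearly the size fitted for Itga6.

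The balance between both laminin receptor chains can be read within each library, where scaling does not enter. The level per kb of Itga6 as a ratio to that of Itga3 was 0.249 (Ctrl 1), 0.196 (Ctrl 2), 0.439 (A5-CKO 1) and 0.402 (A5-CKO 2). Both groups were apart and the spread within each was small beside the gap, with means of 0.222 ± 0.037 in Ctrl and 0.420 ± 0.026 in A5-CKO, a 1.89-fold difference. An exact two-sided permutation test gave p = 0.333, the smallest that 2 against 2 libraries allow, and the pair was picked after its values had been seen. On the log2 scale of the fit, the change of Itga6 exceeded that of Itga3 by 0.88, and by 0.62 to 1.09 over the 17 alternative fits. The lowest of these came from the fit corrected for GC and length, in which Itga6 (48.9% GC) and Itga3 (57.9% GC) are shifted unequally. Per kb, Itga6 stood to Itgb1 at 0.121 and 0.0866 in Ctrl and at 0.171 and 0.179 in A5-CKO, again without overlap (exact permutation test, p = 0.333).

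Itgb4 (chr11:115974725-116008412), the hemidesmosome partner of the Itga6 chain, had groups that overlapped. It was at 33.1 CPM (Ctrl 1), 10.9 CPM (Ctrl 2), 12.1 CPM (A5-CKO 1) and 48.6 CPM (A5-CKO 2), so that each genotype held 1 high and 1 low library. Its fold change on the log2 scale was 0.46 ± 0.74 (95% interval -1.30 to 2.23; edgeR, adjusted p = 0.844), and it was -0.15 without Ctrl 2 and -0.89 without A5-CKO 2. Per kb, Itgb4 stood at 0.280 and 0.161 of Itga6 in Ctrl and at 0.0834 and 0.245 in A5-CKO, so the Itga6 transcript exceeded that of its partner in every library. The genes B230344G16Rik and Galk1 overlap Itgb4 in the RefSeq annotation, and whether reads were counted by strand is not given in the sources used here.

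**Figure D2:**
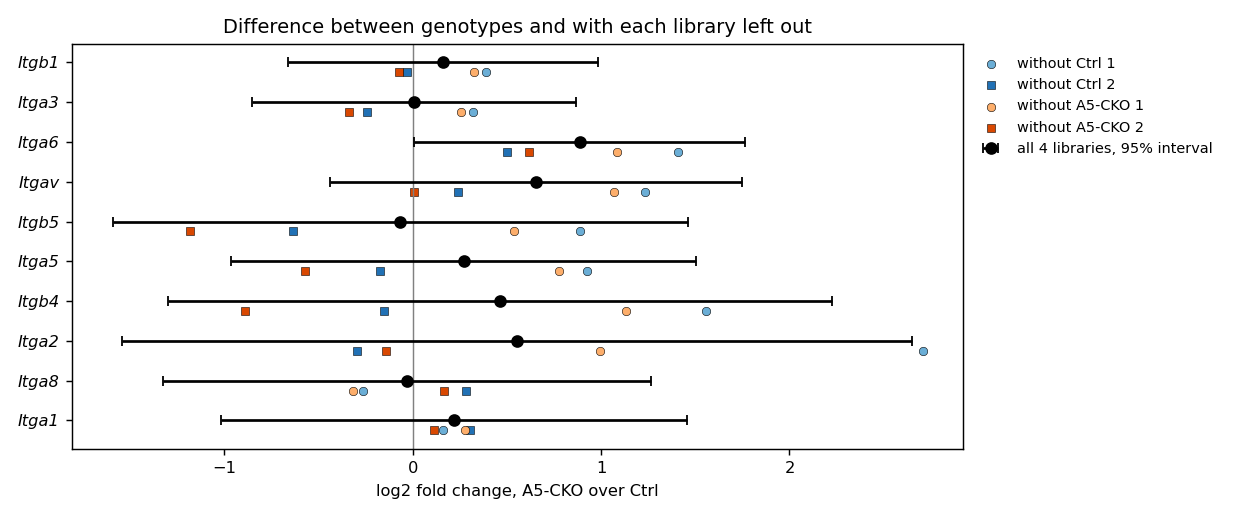
Log2 fold change of each member, A5-CKO over Ctrl, with its 95% interval (black, all 4 libraries) and the value refitted without each library (colored points). The interval of Itga6 alone lies above 0, from 0.0087 to 1.77, and the points for Itga2, Itga3, Itga5, Itga8, Itgb1, Itgb4 and Itgb5 fall on both sides of 0.

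The collagen receptor chains were both low, and they differed in how far they varied. Itga2 (chr13:114833081-114932100), whose product with Itgb1 forms the collagen receptor of epithelia and platelets, was at 14.8 CPM (Ctrl 1), 1.98 CPM (Ctrl 2), 7.79 CPM (A5-CKO 1) and 16.9 CPM (A5-CKO 2). The highest library was 8.54 times the lowest, the widest range of the 10 members, and the Ctrl libraries enclosed A5-CKO 1. The log2 fold change was 0.55 ± 0.88 (95% interval -1.55 to 2.65; edgeR, adjusted p = 0.844). It was 2.71 without Ctrl 1 (unadjusted p below 0.05), -0.30 without Ctrl 2, -0.14 without A5-CKO 2 and 0.03 after the GC and length correction.

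Itga1 (chr13:114958079-115101964), whose product prefers the collagen IV of basement membranes, was nearly flat at 3.78 CPM (Ctrl 1), 4.48 CPM (Ctrl 2), 4.57 CPM (A5-CKO 1) and 5.04 CPM (A5-CKO 2). The A5-CKO libraries were both above the Ctrl libraries, by a margin of less than the spread within either group. The fitted log2 difference was 0.22 ± 0.52 (95% interval -1.02 to 1.45; adjusted p = 0.897), between 0.11 and 0.30 with a library left out, and -0.46 after the GC and length correction. The genes of both chains lie next to each other on chromosome 13, 26.0 kb apart, and the ratio of their levels per kb, Itga2 over Itga1, still ranged from 0.681 in Ctrl 2 to 6.05 in Ctrl 1. Pelo lies within Itga1 and Gm34845 overlaps Itga2 in the annotation.

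For the RGD-binding chains, no difference between genotypes larger than the spread of the libraries was detected. Itga5 (chr15:103344286-103366791), the fibronectin receptor chain, was at 65.4 CPM (Ctrl 1), 32.7 CPM (Ctrl 2), 33.7 CPM (A5-CKO 1) and 84.6 CPM (A5-CKO 2). Each genotype again had 1 high and 1 low library, and the low pair, Ctrl 2 and A5-CKO 1, were nearly equal. Its log2 fold change was 0.27 ± 0.52 (95% interval -0.97 to 1.51; edgeR, adjusted p = 0.871), or -0.18 without Ctrl 2 and -0.57 without A5-CKO 2. Mir6963 lies within Itga5 in the annotation.

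Itgav (chr2:83722303-83806917), the chain shared by the receptors for vitronectin, fibronectin and latent TGF-beta, was at 122 CPM (Ctrl 1), 65.9 CPM (Ctrl 2), 96.7 CPM (A5-CKO 1) and 199 CPM (A5-CKO 2). The A5-CKO 2 library was the highest by a wide margin and A5-CKO 1 lay between both controls. The log2 fold change of 0.65 ± 0.46 (95% interval -0.44 to 1.75; edgeR, adjusted p = 0.631) was the second highest of the members, and it was 0.0085 without A5-CKO 2, 0.24 without Ctrl 2 and 1.24 without Ctrl 1. After the GC and length correction it was 0.14. Dnmt3l-ps1 overlaps Itgav in the annotation.

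Itga8 (chr2:12106632-12301985), which marks fibroblasts and pericytes of the alveolar wall and binds nephronectin, was close to the bottom of the order at 4.08 CPM (Ctrl 1), 6.40 CPM (Ctrl 2), 6.02 CPM (A5-CKO 1) and 4.23 CPM (A5-CKO 2). It was the 1 member that was not highest in A5-CKO 2. Its pattern was the mirror of that of Itga5, Itgb4 and Itgb5, with Ctrl 2 and A5-CKO 1 above Ctrl 1 and A5-CKO 2. On the log2 scale the fold change was -0.03 ± 0.55 (95% interval -1.33 to 1.26; adjusted p = 0.986), and it changed sign without Ctrl 2 (0.28), without A5-CKO 2 (0.17) and under upper-quartile scaling (0.07), and was -0.46 after the GC and length correction. E030013I19Rik overlaps Itga8 in the annotation, so that 6 of the 10 members share bases with another gene.

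Of the beta chains, Itgb1 was the most abundant member and varied little between libraries. Itgb1 (chr8:128685654-128733579) was at 598 CPM (Ctrl 1), 481 CPM (Ctrl 2), 524 CPM (A5-CKO 1) and 680 CPM (A5-CKO 2), and the highest library was 1.42 times the lowest, a range narrower than that of every member other than Itga1 (1.33). The groups overlapped, and the log2 fold change was 0.16 ± 0.35 (95% interval -0.66 to 0.98; edgeR, adjusted p = 0.888), or -0.03 without Ctrl 2, -0.07 without A5-CKO 2 and -0.12 after the GC and length correction. Per kb, the 7 member alpha chains summed to less than Itgb1 in every library, at a ratio of 0.835 in Ctrl 1 and 0.676 in Ctrl 2 against 0.734 and 0.911 for the knockout libraries.

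Itgb5 (chr16:33829665-33949338), which with the Itgav chain binds vitronectin, was at 83.1 CPM (Ctrl 1), 31.0 CPM (Ctrl 2), 25.7 CPM (A5-CKO 1) and 83.3 CPM (A5-CKO 2). Ctrl 1 and A5-CKO 2 were nearly equal and both were over 2.5 times the remaining libraries. The fitted log2 difference was -0.07 ± 0.64 (95% interval -1.59 to 1.46; edgeR, adjusted p = 0.977), 0.89 without Ctrl 1, 0.54 without A5-CKO 1 and 0.02 under upper-quartile scaling. Per kb, Itgb5 stood at 1.46 and 1.01 of Itgav in Ctrl and at 0.571 and 0.899 in A5-CKO, which did not overlap (exact permutation test, p = 0.333, the smallest possible). Several ratios were computed, and others, such as Itgb4 over Itga6 and Itga2 over Itga1, overlapped between the groups.

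Levels per kb of the longest transcript placed the members over more than 2 orders of magnitude. The mean over the 4 libraries was 150 CPM per kb for Itgb1, 66.3 for Itga3, 21.3 for Itga6, 17.1 for Itgav, 17.0 for Itgb5, 12.3 for Itga5, 4.22 for Itgb4, 1.46 for Itga2, 0.892 for Itga8 and 0.408 for Itga1. Library ranges of neighbors in that order were separate for Itgb1 and Itga3, for Itga3 and Itga6 and for Itga8 and Itga1, and they overlapped for the other 6 pairs. Itgav and Itgb5 could not be ordered, since each was higher in 2 of 4 libraries, and Itga2 exceeded Itga8 in 3 of 4. Outside the members, Itga7 at 82.9 CPM per kb had a mean above that of Itga3, and Itga9 at 51.3 was above every member alpha chain other than Itga3.

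Expressed as shares of the 7 member alpha chains per kb, Itga3 made up 58.4% (Ctrl 1), 65.4% (Ctrl 2), 53.0% (A5-CKO 1) and 48.9% (A5-CKO 2). Itga6 made up 14.5%, 12.8%, 23.2% and 19.7% in the same order. Among these 7 chains the share of Itga6 was thus higher and that of Itga3 lower in both A5-CKO libraries, with means for Itga6 of 13.7% ± 1.23 in Ctrl and 21.5% ± 2.54 in A5-CKO (SD, n = 2; exact permutation test, p = 0.333). Shares add to a fixed total, so the 2 differences are not independent. Itgav made up 13.2%, 11.0%, 13.6% and 17.4%, also higher in both A5-CKO libraries. Itga5 made up 7.62% to 11.9% and Itga2 0.327% to 1.60%, and the groups overlapped for both. Measured against all 18 alpha chains in the table, Itga6 was at 5.80%, 4.07%, 9.22% and 10.3%, again without overlap. On that base the groups of Itga3 overlapped, with 20.8% to 23.3% in Ctrl and a mean of 23.3% ± 3.19 in A5-CKO (SD, n = 2), while Itga9 alone held 9.11% in Ctrl 1 and 31.3% in Ctrl 2.

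**Figure D3:**
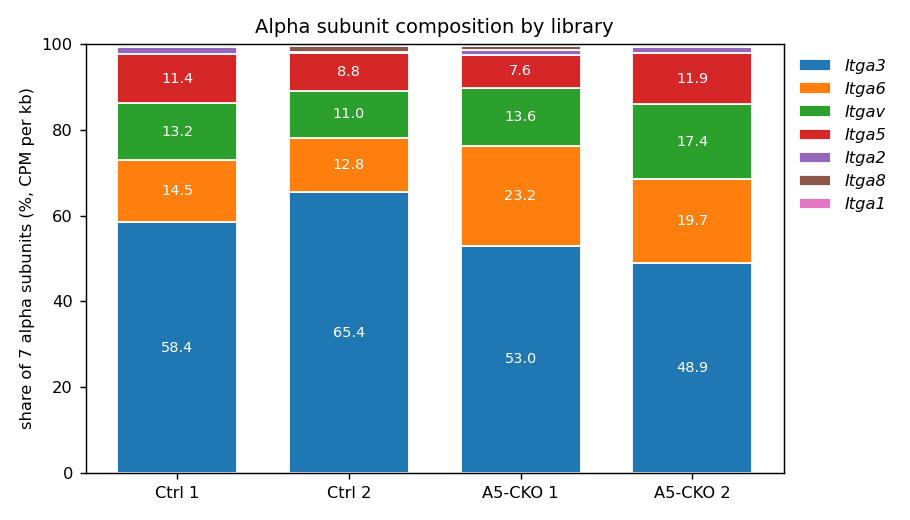
Share of each of the 7 member alpha chains in their summed level (percent, CPM per kb of transcript) in each library, stacked to 100%. Itga6 (orange) takes 12.8% to 14.5% in Ctrl and 19.7% to 23.2% in A5-CKO, and Itga3 (blue) is the largest share in all 4 libraries.

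The spread between libraries of 1 genotype was wide for most members, Itga1 and Itgb1 being the narrow ones. The median ratio of the higher to the lower library was 1.80 within Ctrl and 1.77 within A5-CKO, against 1.43 and 1.36 over all genes tested. Itga1 (1.18 and 1.10) and Itgb1 (1.25 and 1.30) lay under both of these medians, and Itga3 (1.37) under that of Ctrl. As the log2 deviation from the 4-library mean, the median of the members was 0.18 (Ctrl 1), -0.62 (Ctrl 2), -0.16 (A5-CKO 1) and 0.73 (A5-CKO 2). Itgb4, Itgb5, Itga5 and Itga2 carried this pattern most clearly, with Ctrl 1 and A5-CKO 2 as the high pair.

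Marker sums of fibroblasts, smooth muscle and pericytes, and leukocytes were likewise highest in A5-CKO 2 and next highest in Ctrl 1. The summed level of 10 fibroblast markers was 423 CPM (Ctrl 1), 163 CPM (Ctrl 2), 107 CPM (A5-CKO 1) and 1075 CPM (A5-CKO 2). Of these, 9 of 10 were highest in A5-CKO 2 (20.2% of all genes). For 10 smooth muscle and pericyte markers the sum was 99.6, 35.9, 30.2 and 201 CPM, with 7 of 10 highest in A5-CKO 2 (20.2% of all genes). For 12 leukocyte markers it was 772, 242, 277 and 873 CPM, with 6 of 12 highest in A5-CKO 2 (20.2% of all genes). Transitional epithelial markers, whose list of 12 includes Itgb6 but no member, summed to 5731, 2618, 3800 and 5680 CPM. Ctrl 1 and A5-CKO 2 were thus the high pair for this epithelial list as well, and 11 of 12 were lowest in Ctrl 2 (25.9% of all genes). Endothelial markers summed to 211, 282, 141 and 279 CPM, with Cldn5 at 0 counts in every library. AT1 markers summed to 3309, 3308, 2990 and 3570 CPM and airway markers to 2790, 2709, 1924 and 1272 CPM. No list other than the endothelial one had a marker at 0 in all libraries. The part of these markers in the member levels was not tested.

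**Figure D4:**
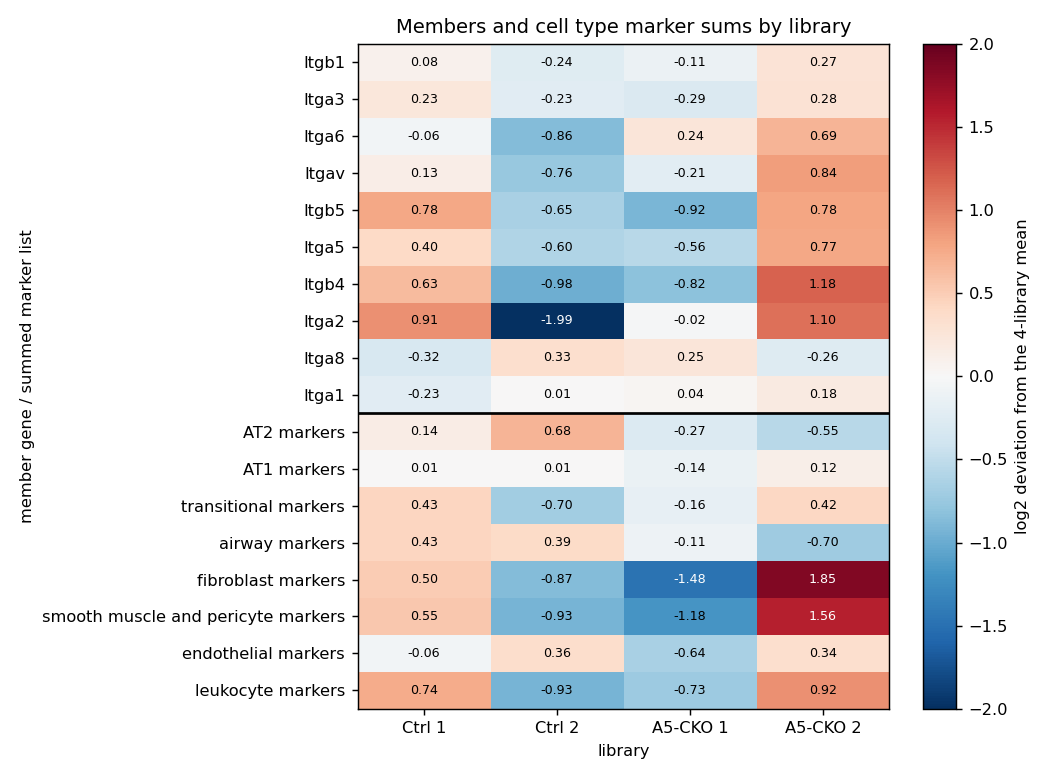
Log2 deviation of each member (upper rows) and of each summed marker list (lower rows) from its mean over the 4 libraries, with red above and blue below the mean. Fibroblast, smooth muscle and pericyte, leukocyte and transitional epithelial markers share the high Ctrl 1 and A5-CKO 2 columns with Itgb5, Itga5, Itgb4 and Itga2. AT2 markers are highest in Ctrl 2 (0.68), where 6 of 10 members are lowest.

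Of the other 17 integrin subunits, 16 passed the filter, and Itgb8 did not (2, 0, 6 and 4 counts). At an unadjusted p of 0.05, 1 was higher and 1 was lower in A5-CKO (9.18% of all genes in either direction). Over the 16 the median was 0.22 on the log2 scale. In both A5-CKO libraries 5 were above (20.3% of all genes) and 1 below (23.5% of all genes). Itga4, a chain of lymphocytes and monocytes that binds VCAM1, was at 13.2 and 5.59 CPM in Ctrl and 29.7 and 25.9 CPM in A5-CKO (log2 fold change 1.56 ± 0.49, adjusted p = 0.528). Itgad, a leukocyte chain, was at 5.14 and 3.84 CPM in Ctrl and at 1.27 and 1.62 CPM in A5-CKO (-1.63 ± 0.60, adjusted p = 0.528).

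Itgb6, the epithelial beta chain that with the Itgav chain activates latent TGF-beta, was at 80.5 CPM (Ctrl 1), 17.8 CPM (Ctrl 2), 76.7 CPM (A5-CKO 1) and 89.0 CPM (A5-CKO 2). Ctrl 2 was the low library there too, and the log2 fold change was 0.75 ± 0.63 (adjusted p = 0.678). Among the beta chains that can pair with the Itgav chain, Itgb1 held 76.8% to 89.3% of the summed level per kb, Itgb5 4.76% to 12.4% and Itgb6 2.62% to 9.71%. Itgb6 exceeded Itgb5 in A5-CKO 1 alone.

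Itga7, a laminin receptor chain of muscle, was at 236 to 496 CPM (log2 fold change -0.56 ± 0.38), and Itga9 was at 210 to 590 CPM with its peak in Ctrl 2 (-0.32 ± 0.51). The leukocyte subunits Itgb2 (191, 82.6, 59.5 and 199 CPM), Itgam (44.9, 24.3, 23.5 and 92.9 CPM) and Itgax (93.3, 30.3, 27.9 and 64.2 CPM) had Ctrl 1 and A5-CKO 2 as the high pair, as Itga5 and Itgb5 did. Itgal (36.6 to 46.2 CPM), Itgb3 (11.6 to 30.8 CPM) and Itgb7 (13.5 to 25.9 CPM) had fold changes of 0.18 ± 0.30, -0.04 ± 0.51 and -0.25 ± 0.43 on the log2 scale.

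Inside the cell, integrin tails bind talin, kindlins and the scaffolds that link them to actin. None of the 28 genes of this adhesion core was called at an unadjusted p of 0.05 (9.18% of all genes). Their median log2 fold change was -0.19, with 18 below and 10 above 0 (49.1% of all genes were above 0). In both A5-CKO libraries 7 were below (23.5% of all genes) and 2 above (20.3% of all genes). Lims1, the adaptor PINCH that bridges integrin-linked kinase to the membrane complex, was at 56.5 and 35.3 CPM in Ctrl and 65.3 and 81.6 CPM in A5-CKO (0.68 ± 0.34). Vasp, an actin regulator, was at 299 and 288 CPM against 150 and 226 CPM (-0.64 ± 0.34), and the kinase Src was at 186 and 147 against 87.0 and 134 CPM (-0.59 ± 0.34). The adjusted p was at least 0.543 for each of these 3 genes.

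Of 13 genes that regulate integrin activity and recycling, 12 were tested, and 1 was called at an unadjusted p of 0.05 (9.18% of all genes). Rab25, an epithelial GTPase that recycles the integrin of the Itga5 and Itgb1 chains, was at 119 and 95.8 CPM in Ctrl and 57.8 and 55.2 CPM in A5-CKO (log2 fold change -0.92 ± 0.29, adjusted p = 0.528). Krit1, which binds the integrin regulator ICAP1, had a log2 fold change of 0.86 ± 0.40, and Snx17, a sorting nexin that keeps Itgb1 products from degradation, one of -0.51 ± 0.28. Of the 10 membrane partners none was called, and the median was -0.30. In both A5-CKO libraries 4 were below (23.5% of all genes) and 1 above (20.3% of all genes). Bsg was at 1390 and 1383 CPM against 836 and 811 CPM (-0.75 ± 0.34, adjusted p = 0.528), the tetraspanin Cd63 at -0.76 ± 0.42 and the tetraspanin Tspan8 at 0.73 ± 0.41. Of 6 hemidesmosome partners, 4 were tested and none was called (median -0.10), Krt5 lay under 2 CPM in every library, and Col17a1 (2 to 29 counts) and Krt14 (4 to 6 counts) did not pass the filter.

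Ligand genes are listed by the receptor class that binds them. None of 11 laminin chains was called (9.18% of all genes), with a median log2 fold change of 0.47 and 8 above 0 (49.1% of all genes). Lama3, the chain of the epithelial laminin that the Itga3 and Itga6 products bind, was at 60.3 and 42.5 CPM in Ctrl and at 106 and 72.3 CPM in A5-CKO (0.80 ± 0.34, adjusted p = 0.528). Lama5 was at 267 and 301 against 412 and 372 CPM (0.47 ± 0.31), and Lamb2 at 246 and 318 against 202 and 168 CPM (-0.61 ± 0.32).

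Of 9 collagen genes, 8 were tested, and 1 was called at an unadjusted p of 0.05 (9.18% of all genes), with a median of 0.76. In both A5-CKO libraries 3 were above (20.3% of all genes) and 2 below (23.5% of all genes). Col1a1, Col1a2 and Col3a1, also counted here among the fibroblast markers, were each highest in A5-CKO 2 and lowest in A5-CKO 1. Col1a1 was at 147 and 32.5 CPM in Ctrl and 21.3 and 386 CPM in A5-CKO. Col4a3, a basement membrane collagen chain made by AT1 cells and also counted here among the AT1 markers, was at 73.5 and 35.1 CPM in Ctrl and 146 and 113 CPM in A5-CKO (1.25 ± 0.41, adjusted p = 0.528). Its partner chain Col4a4 was at 97.0 and 85.9 against 165 and 111 CPM (0.59 ± 0.32), and Col4a2, of the common form of collagen IV, at 848 and 818 against 480 and 677 CPM (-0.53 ± 0.35).

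Of 15 RGD ligands and matricellular partners of integrins, 14 were tested, with a median of 0.47. At an unadjusted p of 0.05, 1 was called (9.18% of all genes), and 11 were highest in A5-CKO 2 (20.2% of all genes). Thbs1, encoding thrombospondin-1, was at 229 and 124 CPM in Ctrl and 435 and 483 CPM in A5-CKO (1.38 ± 0.40, adjusted p = 0.528). Ccn1 was at 246 and 112 against 305 and 347 CPM (0.86 ± 0.43), and Tgfb1, whose latent form carries an RGD motif, was at 137 and 86.5 against 45.0 and 82.2 CPM (-0.81 ± 0.40). In these 8 lists of partners and ligands, the other subunits included, no gene passed an adjusted p of 0.05 in the edgeR fit without a replicate block. With the crossed replicate block, an alternative chosen after seeing the data, 4 of the 102 genes tested passed, Col4a3, Itga4, Thbs1 and Spp1, the last of which is named after its value was seen, and in the other 16 alternative fits 0 passed.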

How the data were processed

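The study made RNA-seq libraries (SMARTER kit) from sorted AT2 cells of 2 Ctrl and 2 A5-CKO samples. The authors deposited 1 table of raw counts per gene. The tools named in the submitters' processing notes are Trim Galore 0.6.10, HISAT2 2.2.1 and featureCounts 2.0.3 with build mm10, and the strand setting is not given in the sources used here. Groups follow the genotype labels. Counts were fitted over all genes with edgeR 4.0.16 in R 4.3.3 (filterByExpr, TMM factors, quasi-likelihood test, A5-CKO minus Ctrl, Benjamini-Hochberg over 16661 genes, threshold 0.05), where the study's methods name DESeq2, here an alternative. CPM values use TMM-scaled totals, and levels per kb use the longest GENCODE transcript of the gene symbol, protein-coding ones first. Shares and ratios were compared by an exact two-sided permutation test over libraries, whose smallest p is 0.333. The fit was tested on simulated counts.

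Totals of 18144865 to 20811757 counts set a floor of 3 counts. Intervals cover the spread between these libraries, which may be technical, since the labels do not tie each library to a separate animal. The members and gene lists were chosen with earlier results of these data known. All members were named. Other subunits were named at a mean of 5 CPM or more or an unadjusted p under 0.05, and in each list of partners or ligands the genes at an unadjusted p under 0.05 and the 3 with the largest fold change among those without group overlap. Cell type markers were described by their sums and, for some lists, by counts of direction and by the genes called. Alternatives were other scaling factors, filters, a robust fit, replicate blocks, a GC and length correction (spline with 4 degrees of freedom, 15237 genes), each library left out, limma voom (limma 3.58.1) and DESeq2 1.42.0.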

Additional observations from a re-analysis of the deposited data

How the results depend on the processing

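With 2 libraries per genotype, no count of members past the adjusted threshold left 0 under any alternative. Of 817 recomputed values, 733 were classed as the same, 62 as changed in sign, 12 as stronger and 10 as weaker. A fold change was the same if it kept its direction and its side of the threshold, and a share if it kept its sign. No member passed the threshold in any fit, so the class of a member could differ only by sign. The robust fit returned the member fold changes of the main fit, so there the sign could not differ either. A count was the same within a ratio of 1.5. The member median was the same if it moved by less than 0.956, so its changes of sign are not among the 62. For the fold changes of the members, 31 of 170 changed sign, in 8 of the 10 members. The 1 member at an unadjusted p under 0.05 became 0 with no filter, with the replicate block, with the GC and length correction and with both together, and 0 to 2 with each library left out. The count of all genes at that threshold, 1530, was 754 with the replicate block, 455 with the block and the GC and length correction and 746 to 1668 when single libraries were dropped. Over the members the median was 0.24, and -0.11 to 0.91 when single libraries were dropped, 0.08 with the GC and length correction and 0.11 with the block as well. DESeq2 called 64 genes on the same genes and 59 with its default filtering, and in those fits Alkbh5, at -2.01 and -2.02, passed the adjusted threshold. Scaling by total counts alone moved the median of all genes from -0.02 to 0.30 and that of the members to 0.56.

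The replicate numbers shared by both groups were not treated as pairs, since no label ties them to a litter or batch and same-numbered deviations correlated at -0.35. With the crossed replicate block, chosen after seeing the data, 230 genes passed the adjusted threshold, 2582 genes and 2 members passed the unadjusted one and Alkbh5 (-2.06) passed the adjusted one, as did 4 of the 102 genes of the partner and ligand lists.

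Some log2 fold changes changed sign under some alternatives, and the cause was not tested. Not all of them were near 0 in the main fit, where Itga1 was at 0.22, Itga9 at -0.32 and Itgb7 at -0.25. With the GC and length correction the fold changes that changed sign were Itga1 (-0.46), Itgb1 (-0.12), Itgb5 (0.082) and Itgb7 (0.0062). With the block as well they were Itga1 (-0.46), Itgb1 (-0.13), Itgb5 (0.048) and Itgb3 (0.0086). With total counts these were Itga8 (0.30), Itgb5 (0.23), Itga9 (0.024), Itgb2 (0.22), Itgb3 (0.25) and Itgb7 (0.054). Upper-quartile factors gave Itga8 0.069, Itgb5 0.023, Itgb2 0.0096 and Itgb3 0.042, and RLE factors gave Itga8 0.016 and Itgb3 0.0012. A minimum of 10 counts gave Itga8 0.015 and Itgb3 0.0028, and DESeq2 on the same genes gave Itga8 0.015 and Itgb3 0.0012. Itga3 was -0.020 with no filter, -0.0030 with either replicate block and -0.0039 with limma voom, and Itgb3 was 0.12 with the replicate block, 0.11 with the crossed block and 0.12 with limma voom.

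With each library left out, fold changes that changed sign ranged from -0.30 to 2.71 for Itga2, -0.34 to 0.32 for Itga3, -0.57 to 0.93 for Itga5, -0.32 to 0.28 for Itga8, -0.073 to 0.39 for Itgb1, -0.89 to 1.56 for Itgb4, -1.18 to 0.89 for Itgb5, -0.83 to 0.57 for Itga9, -0.59 to 1.41 for Itgam, -1.18 to 0.68 for Itgax, -1.23 to 0.72 for Itgb2, -0.62 to 0.90 for Itgb3 and -0.67 to 0.16 for Itgb7. The difference in share among the member alpha chains, in percentage points, ranged from -0.131 to 0.0848 for Itga1, -0.320 to 0.948 for Itga2, -2.45 to 1.81 for Itga5 and -0.554 to 0.202 for Itga8. Itga1, Itga2 and Itga8 rested on 34 to 395 counts per library, and every other member on 187 or more.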
